A study of Homo sapiens with 4 samples.

Results

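Glycolysis and the entry of pyruvate into mitochondria were examined gene by gene in 786-O cells with and without DEK, a chromatin-bound protein with histone chaperone activity. The 33 genes were chosen by name as the transporters, enzymes and regulators that lead from glucose uptake to the pyruvate dehydrogenase complex. All 33 were among the 59409 gene symbols of the deposited table. 786-O cells are an established line from a human clear cell renal carcinoma, in which the tumour suppressor VHL is not functional. There were 2 libraries of negative control cells, labelled WT and named for Cas9, and 2 libraries of DEK knockout cells. The knockout cells were made from a Cas9-expressing clone (LentiCas9-Blast) that was infected with LentiGuide-Puro virus carrying DEK guides and sorted as single cells. All cells were grown in the same serum-containing medium with no further treatment named. Which clone gave which knockout library, and whether replicate libraries stem from separate cultures, is not given in the sources used here, so the p-values measure only the spread between these libraries.

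Glycolysis splits glucose into pyruvate in the cytosol. Glucose enters through facilitative transporters, is trapped by hexokinase and is committed to the pathway by phosphofructokinase, whose strongest activator, fructose 2,6-bisphosphate, is made and removed by the PFKFB enzymes. Pyruvate is then reduced to lactate by lactate dehydrogenase or carried into mitochondria, where pyruvate dehydrogenase turns it into acetyl-CoA and the PDK kinases switch that enzyme off. Many of these genes are targets of hypoxia-inducible factors (HIF), which are active in VHL-deficient renal carcinoma cells without hypoxia.

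Values were TPM, a transcript abundance that is scaled per gene length and sums to 1000000 in each library. Depth, estimated from the steps of low values, was about 35800000 to 40100000 reads. The DEK transcript had 95.02 and 76.3 TPM in the controls against 31.4 and 15.7 TPM in the knockouts (log2 difference -1.89, SE 0.33, limma adjusted p = 0.030), lower in both knockouts but still detected. This call was lost without control 1 (adjusted p = 0.14) and without control 2 (adjusted p = 0.10). Protein was not measured in these files, and an edited transcript can remain as mRNA. The renal marker PAX8 (140.1 to 160.4 TPM) was present in every library, CA9 was at 0 to 0.346 TPM, and 9 renal and line markers summed to 8090 to 8258 TPM in the controls and 8717 to 8941 TPM in the knockouts. Of 12 markers of immune, endothelial, fibroblast or smooth muscle cells, 10 or 11 were under 1 TPM in each library, CD3E was at 0 in all 4, and the list summed to 6.57 and 7.10 TPM in the controls against 10.4 and 12.5 TPM in the knockouts, mostly from ACTA2. Chromosomes differed slightly between the knockouts: knockout 2 minus knockout 1 was -0.17 (log2) for the median gene of chromosome 1 and 0.21 for that of chromosome 7.

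The pathway did not move as a block. Of 32 genes that passed the filter of at least 1 TPM in at least 2 libraries, 7 rose in the knockout (SLC2A1, SLC2A3, HK1, HK2, PFKP, PFKFB4 and ENO2) and 6 fell (PFKL, PFKFB2, PFKFB3, PGAM1, ENO1 and MPC2), and 19 did not pass the threshold (limma, Benjamini-Hochberg adjusted p under 0.05 over 15815 genes). Rises were thus found at uptake and hexokinase, falls at phosphoglycerate mutase and the mitochondrial carrier, and both directions within phosphofructokinase, the PFKFB enzymes and enolase. Over all tested genes 17.7% were called, 9.06% as risen and 8.67% as fallen. The median log2 difference of the 32 genes was -0.08, against -0.06 over all tested genes, and the median absolute difference was 0.38 against 0.29. In bulk RNA, fewer cells that express a gene and less of its mRNA per cell cannot be told apart. Both knockouts lay above both controls for 11 of the 33 genes (29.2% of all tested genes did so) and below both for 16 (39.0%), while 6 overlapped.

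These counts rested on both controls being present. Without control 1, 0 of the 32 genes passed, with 14 at an unadjusted limma p under 0.05 (7 higher and 7 lower), where 19.5% of all tested genes were at that level. Without control 2, 0 passed, with 13 at that level (6 higher and 7 lower), against 21.9% of all tested genes. With knockout 1 left out, 7 rose and 10 fell, in a fit that called 36.4% of all tested genes. Scaling by the median ratio gave 7 rises and 3 falls, and removal of the GC trend gave 5 rises and 7 falls.

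**Figure D1:**
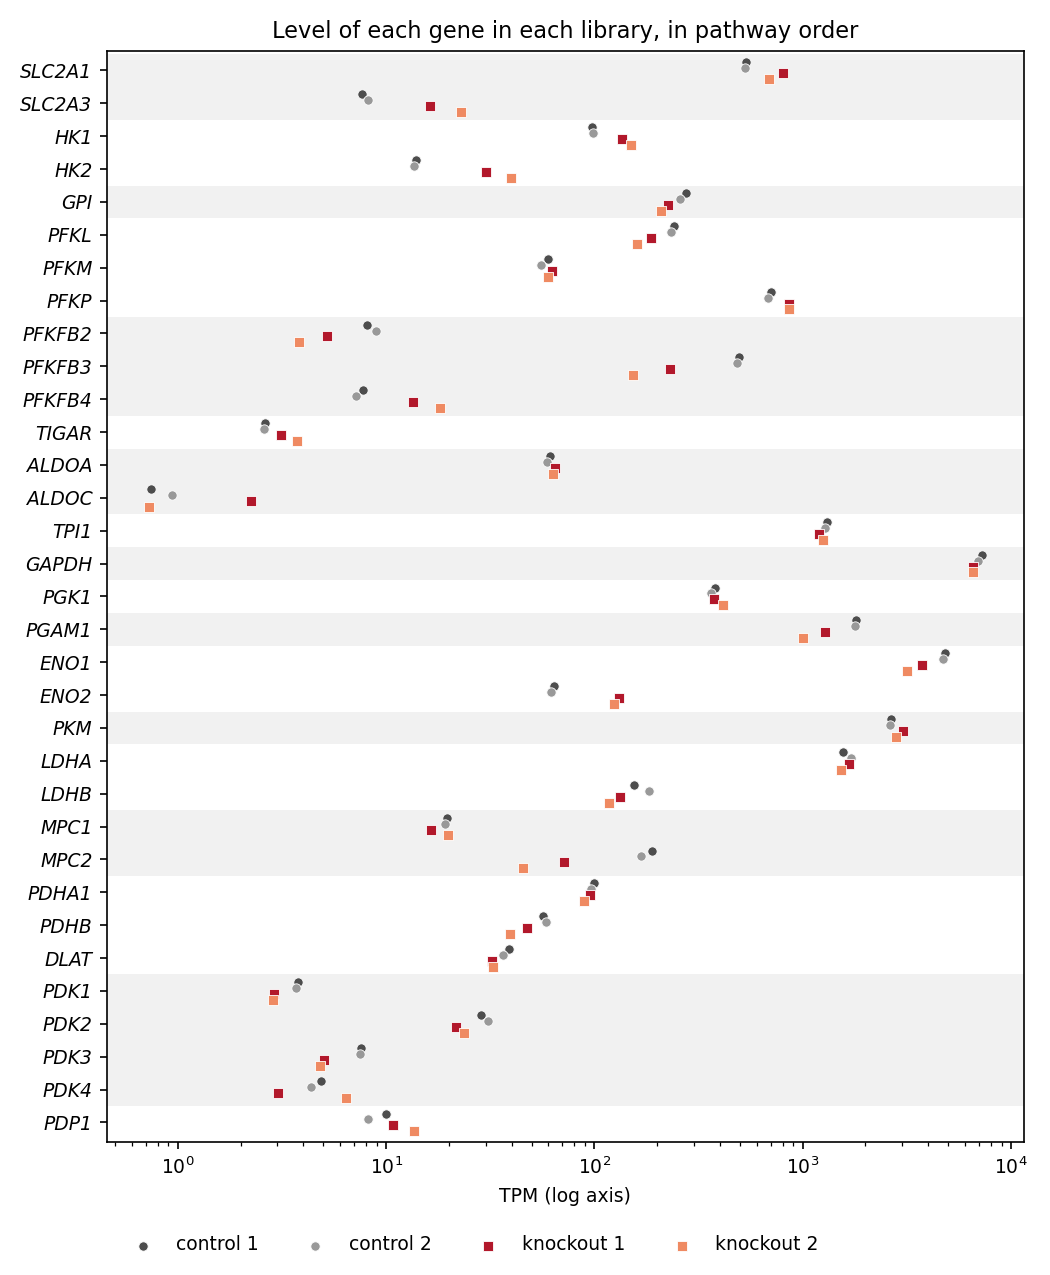
TPM (log axis) of each of the 33 genes in the 2 control (circles) and 2 knockout (squares) libraries, in pathway order, with shading that separates steps; the 4 points of a gene are offset vertically so that all can be seen. GAPDH was the most abundant gene (6546 to 7251 TPM) and ALDOC the least abundant (0.724 to 2.25 TPM).

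Both glucose transporters were higher in the knockout. SLC2A1, which encodes the widely expressed transporter GLUT1 (chromosome 1, 42925375 to 42959176, GRCh38), was at 533 and 527 TPM in the controls against 807 and 690.3 TPM in the knockouts. Knockout 1 was the highest of the 4 libraries, and the groups did not overlap. Its mean rose 1.41-fold, from 530.2 ± 3.79 to 749 ± 82.6 TPM (SD, n = 2 per group), with a log2 difference of 0.49 (SE 0.09, adjusted p = 0.032). SLC2A3, encoding the high-affinity transporter GLUT3 (chromosome 12, 7919230 to 7936275), was far less abundant, at 7.64 and 8.22 TPM in the controls against 16.3 and 22.9 TPM in the knockouts. It rose 2.47-fold (log2 difference 1.19, SE 0.18, adjusted p = 0.024), with knockout 2 highest. SLC2A1 still made up 98.0% and 96.8% of the summed TPM of the pair in the knockouts, against 98.6% and 98.5% in the controls. The call of SLC2A1 was lost with quantile normalization (adjusted p = 0.054) and with the GC trend removed (adjusted p = 0.065), within a range of 0.0045 to 0.18 over 14 alternatives.

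Hexokinase, which phosphorylates glucose on entry, rose in both of its isoenzymes listed here. HK1, the constitutive form (chromosome 10, 69269984 to 69401884), was at 96.9 and 98.8 TPM in the controls against 135 and 150.4 TPM in the knockouts, a 1.46-fold rise (log2 difference 0.54, SE 0.08, adjusted p = 0.023). HK2, the inducible form found in many tumours (chromosome 2, 74833981 to 74893359), was at 13.9 and 13.6 TPM in the controls against 30.2 and 39.6 TPM in the knockouts. It rose 2.54-fold, from 13.8 ± 0.235 to 34.9 ± 6.67 TPM (SD, n = 2), with a log2 difference of 1.27 (SE 0.15, adjusted p = 0.017). For both genes the knockouts lay above the controls and knockout 2 was the higher one. HK1 remained the more abundant isoenzyme in every library, and the share of HK2 in their summed TPM was 12.6% and 12.1% in the controls against 18.2% and 20.9% in the knockouts. HKDC1, a related hexokinase outside the 33 genes, was at 71.1 and 71.2 TPM in the controls against 31.8 and 49.5 TPM in the knockouts, more abundant than HK2 in every library. With HKDC1 counted in, a choice made after its values were seen, the HK2 share was 7.66% and 7.41% in the controls against 15.3% and 16.5% in the knockouts. The next enzyme, the isomerase GPI, was at 275 and 258 TPM in the controls against 225 and 208 TPM in the knockouts. GPI did not pass (log2 difference -0.30, 95% interval -0.49 to -0.11, adjusted p = 0.055). It passed in 4 of 14 alternatives. These were a minimum of 5 TPM (limma adjusted p = 0.046), quantile normalization (0.049), removal of the GC trend (0.0496) and leaving out knockout 1 (log2 difference -0.36).

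Phosphofructokinase, the committing step, went in both directions. PFKP, the platelet form (chromosome 10, 3066333 to 3137712), was the main isoenzyme, at 702 and 685 TPM in the controls against 857 and 855 TPM in the knockouts. The knockouts were nearly equal and above both controls, a 1.23-fold rise (log2 difference 0.30, SE 0.05, adjusted p = 0.032). The 6 other tested genes within 1 Mb of PFKP had a larger median difference, 0.49, and 3 of them rose; around the other 12 called members such medians lay between -0.34 (MPC2) and 0.18 (HK2). The part of the neighbourhood in the PFKP value was not tested. PFKL, the liver form (chromosome 21, 44300051 to 44327376), was at 242 and 233 TPM in the controls against 187 and 159.6 TPM in the knockouts, with both knockouts below. It fell 1.37-fold (log2 difference -0.46, SE 0.09, adjusted p = 0.040). PFKM, the muscle form, was at 59.7 and 55.3 TPM in the controls against 62.2 and 59.6 TPM in the knockouts, which overlapped (log2 difference 0.08, 95% interval -0.13 to 0.29). PFKP thus supplied 69.9% and 70.4% of phosphofructokinase TPM in the controls against 77.5% and 79.6% in the knockouts, and PFKL 24.1% and 23.9% against 16.9% and 14.9%. The summed level of the 3 genes was 988 ± 21.8 TPM in the controls and 1089.9 ± 22.5 TPM in the knockouts (SD, n = 2), a 1.10-fold difference. PFKL lost its call under median ratio scaling (adjusted p = 0.055, range 0.0033 to 0.24), and PFKP lost it with the GC trend removed (adjusted p = 0.077) and under a replicate block (adjusted p = 0.058, range 0.011 to 0.23).

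The bifunctional PFKFB enzymes, which make and degrade fructose 2,6-bisphosphate, held the largest fall among the cytosolic genes and a rise beside it. PFKFB3, the isoform with the highest kinase activity relative to its phosphatase (chromosome 10, 6144934 to 6254644), was at 496 and 483 TPM in the controls against 231 and 153 TPM in the knockouts. Both knockouts were less than either control, and knockout 2 was the lowest. The mean fell 2.55-fold, from 489.7 ± 8.87 to 192 ± 55.5 TPM (SD, n = 2), a log2 difference of -1.38 (SE 0.20, adjusted p = 0.022). PFKFB4 (chromosome 3, 48517684 to 48562015) went the other way, from 7.77 and 7.20 TPM in the controls to 13.4 and 18.1 TPM in the knockouts, a 2.11-fold rise (log2 difference 0.97, SE 0.17, adjusted p = 0.031). PFKFB2, the heart form (chromosome 1, 207034366 to 207081024), was at 8.12 and 8.99 TPM in the controls against 5.21 and 3.80 TPM in the knockouts, a 1.90-fold fall (log2 difference -0.81, SE 0.18, adjusted p = 0.046). The PFKFB2 call was the least stable of the 13. It held in 5 of 14 alternatives and was lost, for example, without knockout 2 (log2 difference -0.62, adjusted p = 0.052; 0.012 to 0.22 over the alternatives). The ratio of PFKFB3 to PFKFB4 mRNA was 63.8 and 67.1 in the controls against 17.2 and 8.41 in the knockouts. The summed level of the 3 genes followed PFKFB3 and was 2.38-fold lower in the knockout (506 ± 8.66 against 212 ± 53.1 TPM, SD, n = 2). TIGAR, which removes fructose 2,6-bisphosphate, was at 2.63 and 2.60 TPM in the controls against 3.11 and 3.74 TPM in the knockouts (log2 difference 0.29, 95% interval -0.15 to 0.73). Annotated exons of the called genes are partly shared with other genes: PFKFB4 shares 4.7% of its exon bases with UCN2 on the same strand, which rose too (log2 difference 0.98, adjusted p = 0.019), and PFKFB2 shares 3.1% with YOD1 on the opposite strand (-1.14, adjusted p = 0.051). The part of these overlaps in the values was not tested.

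Sequence before the start of PFKFB3 and PFKFB4 is shown because these isoenzymes moved in opposite directions. It comes from RefSeq promoters on GRCh38.p14, written 5′ to 3′ on the gene's strand, with capitals marking ACGTG or GCGTG on either strand, the core letters of the hypoxia response element bound by HIF. PFKFB3 has 2 listed starts, and the 250 bases before the first are shown (chr10:6144671-6144920, plus strand). For PFKFB4 the 163 bases that lie outside annotated exons are shown (chr3:48556891-48557053, minus strand). They precede the start that RefSeq lists and lie inside the span of the gene given above, since other annotated transcripts start farther upstream.
PFKFB3: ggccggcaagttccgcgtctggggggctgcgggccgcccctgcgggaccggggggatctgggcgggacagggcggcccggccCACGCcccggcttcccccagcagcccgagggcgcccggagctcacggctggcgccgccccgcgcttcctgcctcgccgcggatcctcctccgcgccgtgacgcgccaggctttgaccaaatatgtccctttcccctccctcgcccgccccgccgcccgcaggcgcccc
PFKFB4: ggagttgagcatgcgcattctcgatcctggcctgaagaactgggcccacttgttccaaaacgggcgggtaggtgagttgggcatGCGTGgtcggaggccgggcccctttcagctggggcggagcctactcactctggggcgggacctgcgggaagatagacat
Each stretch held 1 match, to GCGTG, read on the opposite strand (as CACGC) in PFKFB3. A match is a run of letters and not a measured binding site.

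The middle of the pathway, from aldolase to phosphoglycerate kinase, held no gene past the threshold. GAPDH, the oxidising step often used as a reference gene, was at 7251 and 6970 TPM in the controls against 6546 and 6574 TPM in the knockouts (log2 difference -0.12, 95% interval -0.27 to 0.04, adjusted p = 0.21). TPI1, which interconverts the triose phosphates, was at 1301 and 1273 TPM in the controls against 1202 and 1247 TPM in the knockouts (-0.07, 95% interval -0.22 to 0.08). PGK1, the first ATP-forming enzyme of the pathway, was at 378 and 363 TPM in the controls against 375 and 414 TPM in the knockouts (0.09, 95% interval -0.10 to 0.28). These intervals hold no change of 1.5-fold in either direction. ALDOA, the main aldolase of most tissues, was at 61.3 and 59.3 TPM in the controls against 64.6 and 63.4 TPM in the knockouts (0.08, 95% interval -0.10 to 0.27). That level was far under those of its neighbours in the pathway, and 42.3% of the annotated ALDOA exon bases also belong to AC093512.2, a gene model on the same strand listed at 3.47 to 5.39 TPM. How reads from shared bases were counted is not given in the sources used here, so the ALDOA level relative to other steps is uncertain. ALDOC, the brain form, did not pass the filter, with 0.746 and 0.941 TPM in the controls against 2.25 and 0.724 TPM in the knockouts. GAPDH shares 14.2% of its exon bases with AC006064.4 on the opposite strand, listed at 479.7 TPM in each control and 500.0 and 568.5 TPM in the knockouts, and reads of that pair cannot be told apart if strand was not used.

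Phosphoglycerate mutase and the major enolase, which follow each other in the pathway, both fell. PGAM1 (chromosome 10, 97426160 to 97433441) was at 1806 and 1786 TPM in the controls against 1273 and 999 TPM in the knockouts. It fell 1.58-fold, from 1796 ± 14.3 to 1136 ± 193 TPM (SD, n = 2), with a log2 difference of -0.67 (SE 0.12, adjusted p = 0.033). ENO1, the ubiquitous enolase (chromosome 1, 8861000 to 8879250), was at 4828 and 4705 TPM in the controls against 3731 and 3157.5 TPM in the knockouts, a 1.38-fold fall (log2 difference -0.47, SE 0.10, adjusted p = 0.038). For both genes the knockouts were below the controls and knockout 2 was lowest. ENO2, the neuronal enolase and a HIF target (chromosome 12, 6913745 to 6923698), was at 64.1 and 61.8 TPM in the controls against 130.5 and 124.5 TPM in the knockouts. It rose 2.03-fold (log2 difference 1.01, SE 0.07, adjusted p = 0.0091), with nearly equal knockouts well above both controls. The 45 other tested genes within 1 Mb of ENO2 had a median difference of 0.03. Of them 4 rose and 2 fell, beside 17.7% called over all tested genes. They include TPI1 (6867119 to 6870948) and GAPDH (6533927 to 6538374), which did not pass. The part of the neighbourhood in the ENO2 value was not tested. The ratio of ENO1 to ENO2 mRNA was 75.3 and 76.2 in the controls against 28.6 and 25.4 in the knockouts, so the ENO2 share of enolase was 1.31% and 1.30% against 3.38% and 3.79%. The summed enolase level was 1.35-fold lower in the knockout. ENO1 lost its call under median ratio scaling (log2 difference -0.41, adjusted p = 0.055, range 0.0025 to 0.20). Of similar sequences, 4 ENO1 pseudogenes in the table were at 0, and 13 PGAM1 pseudogenes summed to 1.48 to 3.74 TPM.

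The same letters were counted before the start of the other genes of the pathway. Of 30 members with a RefSeq promoter, taking the first start listed, 18 held ACGTG or GCGTG within the 250 bases before the start, against 43.1% of 27305 promoters of that length. The members' promoters were also richer in G and C, with a median of 71.2% against 58.0%. ACGTG was in 12 of the 30 (18.7% of all promoters), GCGTG in 12 (31.9%), and CACGTG, which contains ACGTG and is bound by MYC and by the glucose-responsive factor pair MLX and MLXIPL, in 4 (6.49%). By direction, 3 of 6 promoters of genes that rose and 3 of 5 of genes that fell held ACGTG or GCGTG, as did 11 of 18 of genes that did not pass. In the 250 bases before their starts, ENO1, which fell, held 2 matches to GCGTG and ENO2, which rose, held 1 to ACGTG. LDHA had the most matches to ACGTG, with 5, counting both strands of a CACGTG.

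Pyruvate kinase and lactate dehydrogenase, the last cytosolic steps, did not pass in any gene. PKM, which makes pyruvate and ATP, was at 2665 and 2624 TPM in the controls against 3012 and 2788 TPM in the knockouts (log2 difference 0.13, 95% interval -0.04 to 0.30). The table has 1 value for PKM, so its alternatively spliced forms were not compared. LDHA, the subunit of muscle-type lactate dehydrogenase and a classic HIF target, was at 1568 and 1705 TPM in the controls against 1672 and 1533 TPM in the knockouts, with overlapping groups (-0.03, 95% interval -0.23 to 0.17). LDHB, the heart-type subunit, was at 154 and 183 TPM in the controls against 132 and 118 TPM in the knockouts. Both knockouts were below both controls, but LDHB did not pass (-0.43, 95% interval -0.72 to -0.14, adjusted p = 0.061), except, for instance, without knockout 1 (-0.51, adjusted p = 0.026; 0.026 to 0.29 over the alternatives). The LDHB share of lactate dehydrogenase was 8.96% and 9.68% in the controls against 7.31% and 7.12% in the knockouts. LDHB shares 33.4% of its annotated exon bases with AC010197.2, which was listed at 0 in all libraries.

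**Figure D2:**
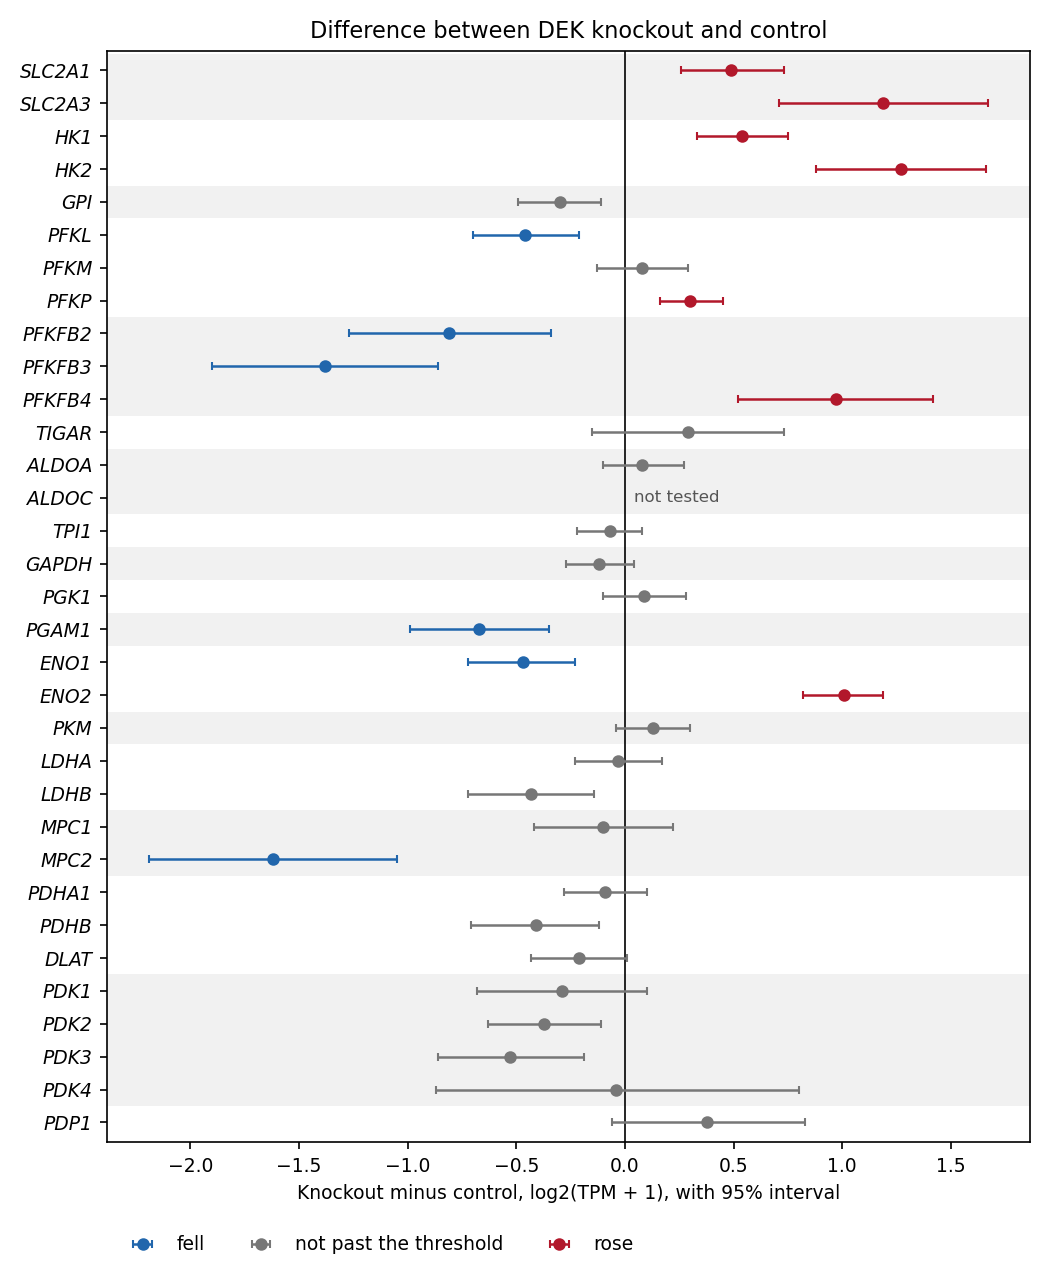
Knockout minus control on the log2(TPM + 1) scale for the 32 tested genes in pathway order, with the 95% interval of the limma fit; red, rose; blue, fell; grey, not past an adjusted p of 0.05. The extremes are HK2 (1.27) and MPC2 (-1.62), and PFKFB3 with PFKFB4 and ENO1 with ENO2 lie on opposite sides of 0.

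The mitochondrial pyruvate carrier, a heterodimer of MPC1 and MPC2, had the largest fall of the whole list. MPC2 (chromosome 1, 167916729 to 167937040) was at 188 and 166 TPM in the controls against 71.1 and 45.6 TPM in the knockouts. The knockouts were far below both controls, and the mean fell 3.04-fold, from 177 ± 15.6 to 58.4 ± 18.05 TPM (SD, n = 2), a log2 difference of -1.62 (SE 0.22, adjusted p = 0.020). MPC1, its partner, was at 19.6 and 19.1 TPM in the controls against 16.5 and 19.7 TPM in the knockouts, with overlapping groups (log2 difference -0.10, 95% interval -0.42 to 0.22). The ratio of MPC2 to MPC1 mRNA was therefore 9.59 and 8.71 in the controls against 4.32 and 2.31 in the knockouts, with MPC2 above MPC1 in each library. MPC2 shares 22.5% of its exon bases with DCAF6 on the opposite strand, which was at 101.0 and 112 TPM in the controls against 69.1 and 44.1 TPM in the knockouts (-0.93, SE 0.22, adjusted p = 0.0504). The median tested gene of chromosome 1 differed by -0.17, and the median of the 10 other tested genes within 1 Mb of MPC2 was -0.34. With the chromosome medians removed the log2 difference of MPC2 was -1.45, still the lowest of the members, and its log2 difference over all 14 alternatives lay between -1.93 and -1.30. The part of the overlap with DCAF6 was not tested.

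Genes of the pyruvate dehydrogenase complex and its regulators gave lower values in the knockout in most cases, with none past the threshold. PDHB, the beta subunit of the first enzyme of the complex, was at 56.9 and 58.8 TPM in the controls against 47.5 and 39.1 TPM in the knockouts (log2 difference -0.41, 95% interval -0.71 to -0.12, adjusted p = 0.069). PDHA1, the alpha subunit that the kinases phosphorylate, was at 99.5 and 96.5 TPM in the controls against 94.9 and 89.3 TPM in the knockouts (-0.09, 95% interval -0.28 to 0.10). DLAT, the acetyltransferase core, was at 38.8 and 36.3 TPM in the controls against 32.3 and 32.4 TPM in the knockouts (-0.21, 95% interval -0.43 to 0.01). All 3 subunits had both knockouts below both controls, as did 39.0% of all tested genes. PDHB passed only without knockout 1 (-0.55, adjusted p = 0.0064; 0.0064 to 0.29 over the alternatives).

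Of the 4 pyruvate dehydrogenase kinases, which inactivate the complex, PDK2 was the most abundant. It was at 28.4 and 30.7 TPM in the controls against 21.7 and 23.7 TPM in the knockouts (log2 difference -0.37, 95% interval -0.63 to -0.11, adjusted p = 0.066). PDK3 was at 7.59 and 7.47 TPM in the controls against 5.03 and 4.83 TPM in the knockouts (-0.53, 95% interval -0.86 to -0.19, adjusted p = 0.055). PDK1, known as a HIF target, was at 3.77 and 3.70 TPM in the controls against 2.89 and 2.85 TPM in the knockouts (-0.29, 95% interval -0.68 to 0.10). In these 3 kinases both knockouts were below both controls, the pattern of 39.0% of all tested genes. PDK4, which is induced by fasting and fatty acids in many tissues, separated the knockouts from each other instead: it was at 4.89 and 4.34 TPM in the controls, 3.02 TPM in knockout 1 and 6.42 TPM in knockout 2. PDK4 lies on chromosome 7, whose median gene was higher by 0.21 in knockout 2 than in knockout 1, and the part of that shift was not tested. The summed kinase level was 45.4 ± 1.09 TPM in the controls and 35.2 ± 3.67 TPM in the knockouts (SD, n = 2), 1.29-fold lower. PDP1, the phosphatase that reactivates the complex, was at 9.98 and 8.22 TPM in the controls against 10.7 and 13.7 TPM in the knockouts (0.38, 95% interval -0.06 to 0.83). PDK3 passed in 2 of 14 alternatives, with a minimum of 5 TPM (limma adjusted p = 0.0497) and without knockout 1 (log2 difference -0.55). PDK2 also passed in 2 of 14, with the GC trend removed (-0.48, limma adjusted p = 0.037) and without knockout 2 (-0.43). Of the PDK2 exon bases, 38.6% are shared with SAMD14 on the opposite strand, at 0.795 to 1.29 TPM.

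Isoenzyme shares differed between the groups at several steps. Within a step, the share of each isoenzyme is its TPM over the summed TPM of the step, and it is the same under any single scaling factor for a library. HK2 gained 7.20 percentage points of the sum of HK1 and HK2, PFKP gained 8.38 points of phosphofructokinase, PFKFB4 gained 6.41 points of the PFKFB genes and ENO2 gained 2.28 points of enolase (differences of group means). PFKFB3 remained the main PFKFB gene, at 96.9% and 96.8% in the controls against 92.5% and 87.4% in the knockouts, where PFKFB4 reached 5.38% and 10.4%. For SLC2A3, HK2, PFKL, PFKFB4, ENO2 and LDHB the knockout shares did not overlap the control shares. The same held for the other isoenzymes of these steps, PFKM and PFKFB2 included, and for PDK3. Only the shares of ALDOA, ALDOC, PDK1, PDK2 and PDK4 overlapped. In levels, both knockouts lay above both controls for 29.2% of all tested genes and below both for 39.0%, so a lack of overlap does not set these isoenzymes apart. With 2 libraries in each group an exact permutation test cannot give a p below 0.333, so the shares are descriptions. Among the kinases the PDK2 share overlapped, at 63.6% and 66.4% in the controls against 66.5% and 62.7% in the knockouts.

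**Figure D3:**
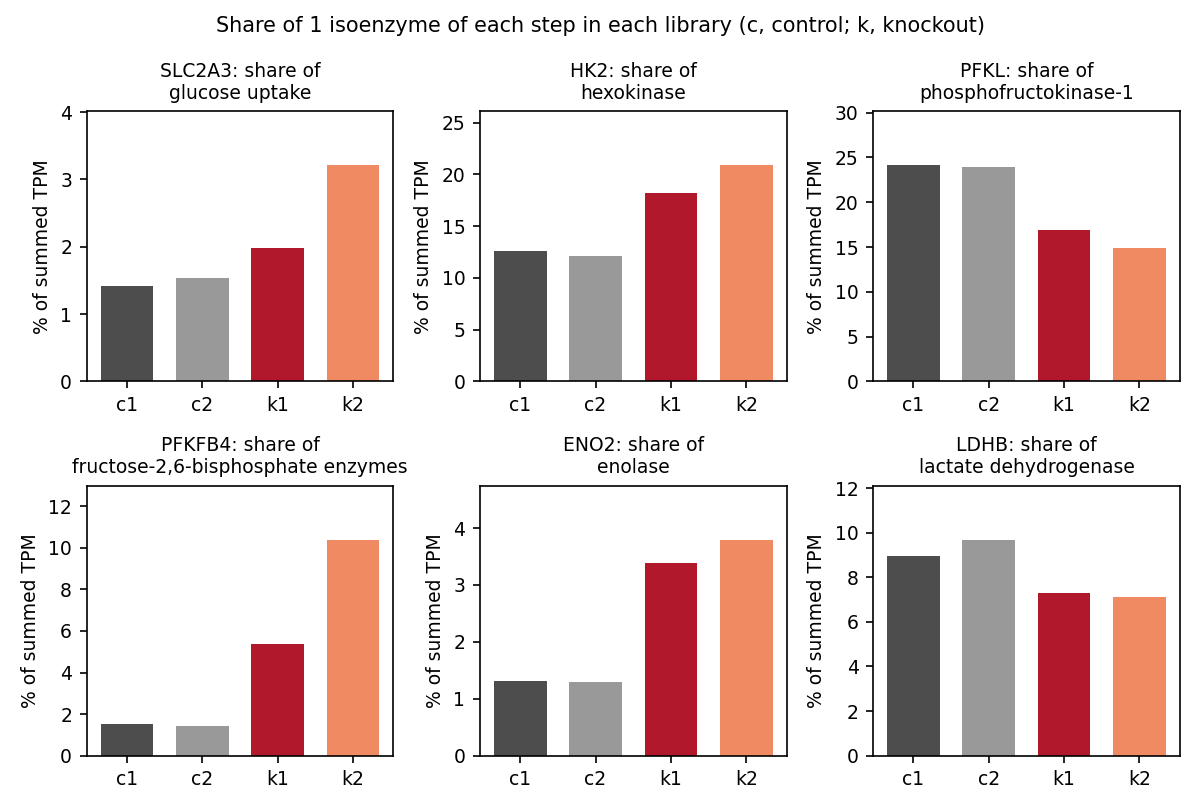
Share (percent of the summed TPM of a step) of 1 isoenzyme in each library, with c1 and c2 for the controls and k1 and k2 for the knockouts; each bar is 1 library and each panel has its own axis from 0. The HK2 share of HK1 and HK2 is 12.6% and 12.1% in the controls against 18.2% and 20.9% in the knockouts, and the PFKL and LDHB shares are lower in both knockouts.

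Summed over the 33 genes, the pathway took 2.30% and 2.25% of all TPM in the controls against 2.10% and 1.97% in the knockouts. The sum is dominated by GAPDH, ENO1, PKM, PGAM1, LDHA and TPI1. Step by step, the ratio of summed TPM between knockout and control means was 1.43 for glucose uptake, 1.59 for HK1 with HK2, 1.10 for phosphofructokinase, 0.739 for enolase, 1.10 for pyruvate kinase, 0.957 for lactate dehydrogenase, 0.389 for the mitochondrial carrier and 0.868 for the 3 pyruvate dehydrogenase subunits. With HKDC1 added, the hexokinase sum was 183 ± 1.22 TPM in the controls and 218 ± 29.8 TPM in the knockouts (SD, n = 2), a ratio of 1.196. By summed TPM the mitochondrial carrier was the lowest of all steps relative to control. It was followed closely by the PFKFB enzymes (ratio 0.420) and then by phosphoglycerate mutase (0.633). The carrier sum adds the 2 partners of a heterodimer, not isoenzymes, and it followed MPC2 (ratio 0.329). MPC1, the less abundant partner, had a ratio of 0.934.

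The 2 knockout libraries usually moved in the same direction and by different amounts. For 10 of the 13 genes past the threshold, knockout 2 lay farther from the control mean than knockout 1 on the log2(TPM + 1) scale (76.9%), and over all 2804 called genes this held for 75.2%. PFKFB3 was at 0.472 of the control mean in knockout 1 and at 0.312 in knockout 2, and MPC2 at 0.401 and 0.257. The exceptions were SLC2A1, PFKP and ENO2. DEK mRNA itself was at 0.367 of the control mean in knockout 1 and 0.183 in knockout 2. A relation between DEK mRNA and these genes was not tested.

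**Figure D4:**
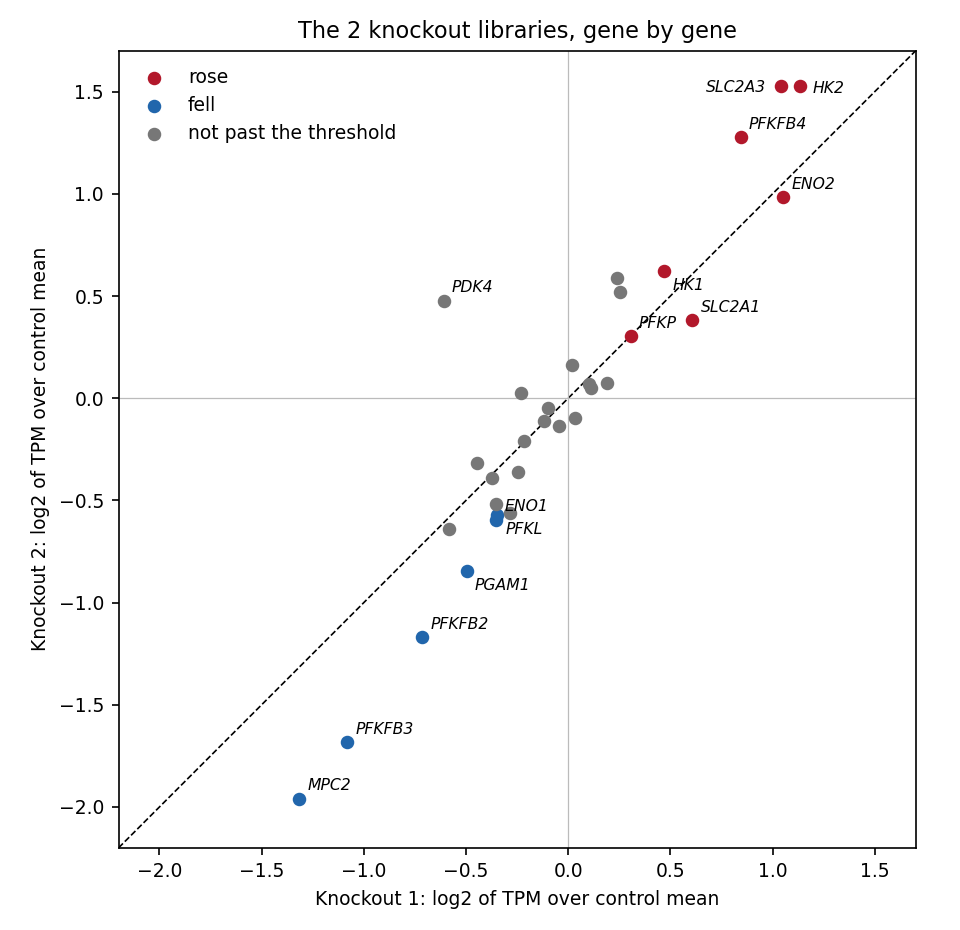
Log2 of TPM over the control mean in knockout 1 (horizontal) and knockout 2 (vertical) for the 32 tested genes, coloured by call, with a dashed line of equality. MPC2 and PFKFB3 lie lowest in both libraries and below the line, ENO2 and PFKP lie close to the line, and PDK4 is below the control mean in knockout 1 and above it in knockout 2.

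Of 21 tested genes for other transporters, isoenzymes and lactate export, 2 rose and 1 fell, with a median log2 difference of -0.05. Over all tested genes 17.7% were called, and the count here is too small to set the list apart from that share. SLC16A3, encoding the lactate exporter MCT4, rose 1.46-fold, from 584 and 570.1 TPM to 753 and 936 TPM (log2 difference 0.54, SE 0.11, adjusted p = 0.042). BSG, the basigin chaperone that monocarboxylate transporters need at the membrane, rose 1.35-fold from 984 ± 15.03 to 1332 ± 1.32 TPM (SD, n = 2; adjusted p = 0.018). SLC2A2, the transporter GLUT2 of liver and renal tubule, fell from 7.33 and 6.80 TPM to 0.339 and 0.181 TPM (log2 difference -2.68, SE 0.18, adjusted p = 0.0089). HKDC1 did not pass (-0.83, adjusted p = 0.060), and neither did ENO3 (0.59, adjusted p = 0.065) or PGAM2 (0.90, adjusted p = 0.083). Of these 21 genes, 0 passed without control 1 or without control 2, 9 without knockout 1 (36.4% of all tested genes called) and 5 without knockout 2 (20.4%).

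Branches into glycogen, the pentose phosphate pathway and gluconeogenesis had 3 rises and 3 falls among 21 tested genes (17.7% of all tested genes were called), with a median of -0.13. PCK2, the mitochondrial phosphoenolpyruvate carboxykinase, rose 1.88-fold from 16.96 ± 0.220 to 31.9 ± 2.11 TPM (SD, n = 2; adjusted p = 0.016). The glycogen genes split: the phosphorylase PYGL (log2 difference 0.47, adjusted p = 0.024) and the primer glycogenin GYG1 (0.42, adjusted p = 0.044) rose, and the branching enzyme GBE1 fell (-0.88, adjusted p = 0.024). In the pentose phosphate pathway the transketolase TKT (-0.38, adjusted p = 0.031) and H6PD, its endoplasmic reticulum dehydrogenase (-0.35, adjusted p = 0.048), fell. In this list 0 genes passed when either control was left out, and 13 passed without knockout 1, where 36.4% of all tested genes were called.

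Regulators of glycolysis were also mixed, with 3 rises and 3 falls among 23 tested genes, beside the same 17.7% over all tested genes, and a median of 0.08. TXNIP, a glucose-induced inhibitor of glucose uptake, rose 3.44-fold, from 18.6 and 17.9 TPM to 62.6 and 63.1 TPM (log2 difference 1.73, SE 0.08, adjusted p = 0.0057), and its relative ARRDC4 rose by 0.78 (adjusted p = 0.034). EGLN3, a HIF prolyl hydroxylase and itself a HIF target, rose 2.04-fold (adjusted p = 0.034). PPARGC1A, a coactivator of mitochondrial biogenesis, fell from 6.93 and 5.98 TPM to 1.57 and 0.587 TPM (-1.88, SE 0.28, adjusted p = 0.023). ARNT, the partner of the HIF alpha subunits, fell by 0.62 (adjusted p = 0.044). EPAS1, the HIF alpha subunit that 786-O cells are known to express, was at 67.3 and 66.9 TPM in the controls against 84.4 and 77.7 TPM in the knockouts and did not pass (0.27, 95% interval 0.07 to 0.47). With either control left out, 1 of the 23 genes passed, and without knockout 1, 12 did, beside 36.4% of all tested genes.

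Directions were more stable than calls. Each of the 13 genes kept its direction in all 14 alternatives, while 0 of the 13 passed without either control or with no filter on low values (19 of 33 members at an unadjusted limma p under 0.05 in the last case, beside 22.9% of all tested genes). SLC2A3, HK2, PFKFB3, ENO2 and MPC2 passed in 11 of 14 alternatives, the most of any member, and these 5 were also the ones that passed with a constant variance prior.

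**Figure D5:**
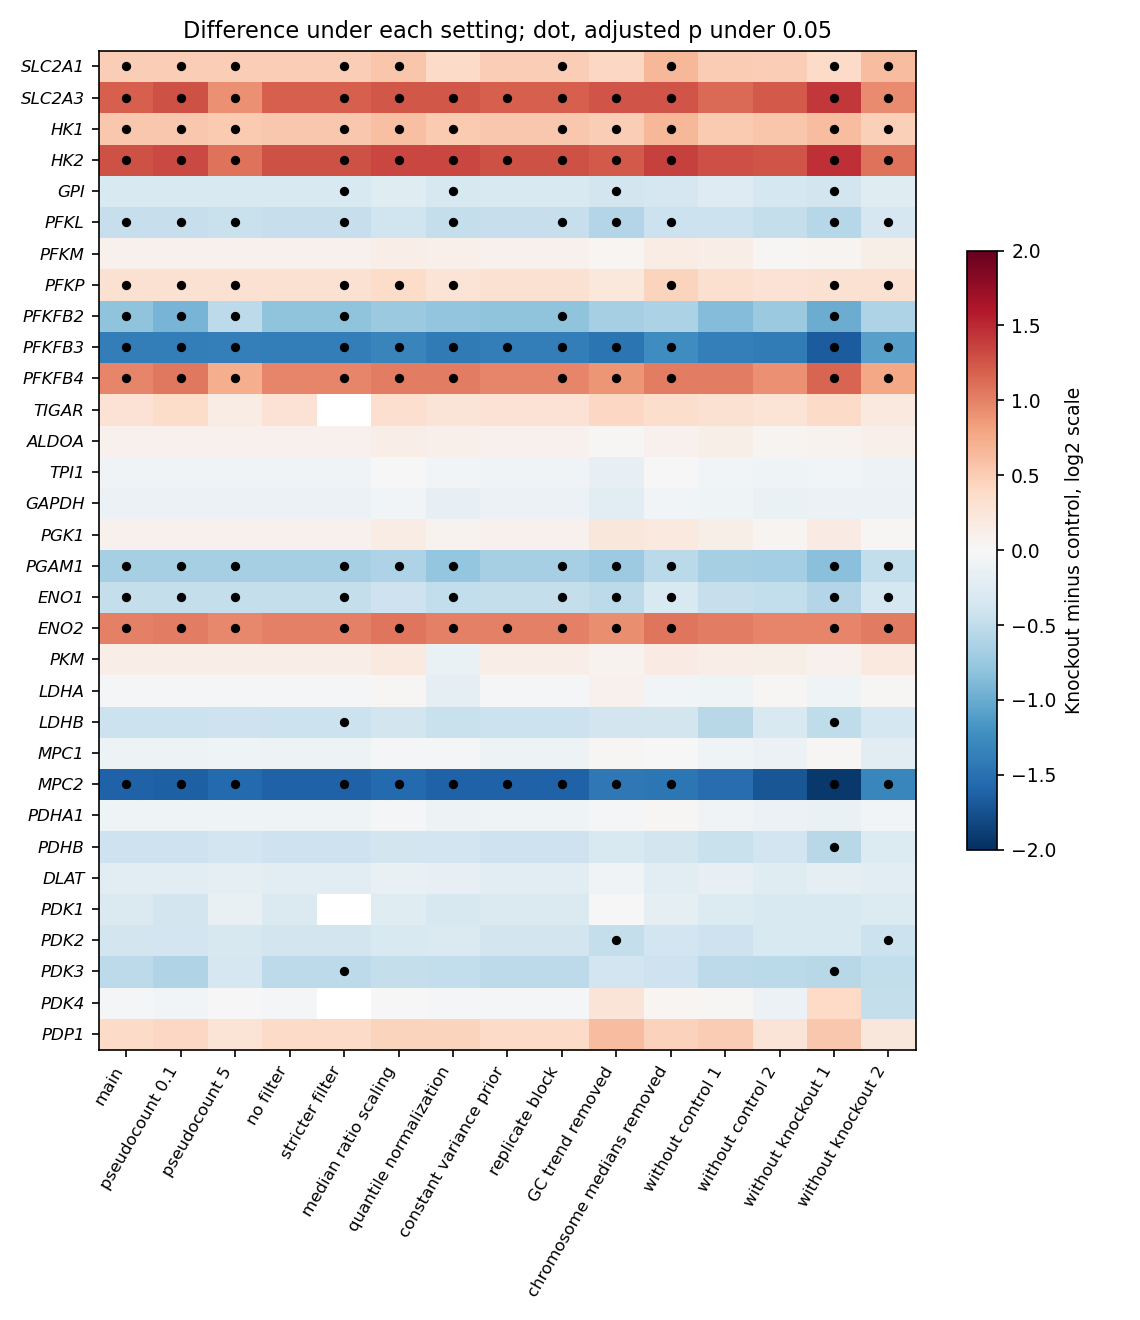
Knockout minus control (colour, log2 scale) for the 32 tested genes under the reported fit, named main, and 14 alternatives; a dot marks an adjusted p under 0.05 and white cells were not tested. Rows for SLC2A3, HK2, PFKFB3, ENO2 and MPC2 have dots in 11 of the 14 alternatives, and the columns with no filter, without control 1 and without control 2 have no dots.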

How the data were processed

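Polyadenylated RNA of 2 control and 2 DEK knockout libraries was measured; groups and replicate numbers come from the sample titles. The authors deposited TPM values for 59409 symbols, 1 column per library. Per the submitters' processing notes, the tools were STAR 2.7.8a, cutadapt 1.18, DESeq2 1.36.0 and featureCounts 2.0.1, and hg38 was the build; roles and order are not stated there. For annotation, gene lengths and strand use, the sources used here give nothing.

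A gene was kept where 2 or more libraries had 1 TPM or more (15815 genes). The limma package 3.58.1 (R 4.3.3) fitted log2(TPM + 1) on group alone, with a trended variance prior, and p-values were adjusted by the Benjamini-Hochberg method at 0.05 over all tested genes. On this log2 scale, differences of low genes are understated; folds are ratios of mean TPM. The fit was also run on simulated data with the same spread in both groups. The knockouts here differed more from each other than the controls did, so that run cannot vouch for these p-values. Positions, exon overlaps and GC content come from GENCODE release 29 on GRCh38, matched for 54390 symbols by name and 2209 through a table of symbols. Depth was estimated from TPM times exon length, where 62.9% to 65.0% of values under 20 reads came out whole within 0.02, and is approximate. The 14 alternatives were 2 other pseudocounts (0.1 and 5), no filter, a minimum of 5 TPM, median ratio scaling, quantile normalization, a constant prior, a replicate block, removal of the GC trend or of chromosome medians, and leaving out each library. Counting HKDC1 in the hexokinase step was added after the data were seen. The members, the lists and the alternatives were chosen with earlier results of these data known. The genes named are all members, DEK, up to 6 genes with the smallest p of each other list, and EPAS1, PAX8 and overlapping genes, which were chosen after their values were seen. Some genes counted in the lists are not reported here by name.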

Additional observations from a re-analysis of the deposited data

How the results depend on the processing

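Fold directions held for the 13 called members in all alternatives, most of which could not reverse them, while the number of calls varied. Counts are given as genes changed in all, members that rose and members that fell, against 2804, 7 and 6. With no filter on low values they were 26, 0 and 0, and with a constant variance prior 1437, 3 and 2. Leaving out 1 library gave 47 to 5510, 0 to 7 and 0 to 10, lowest without either control and highest without knockout 1, where 36.4% of all tested genes were called. Median ratio scaling gave 3 members that fell, and with it 62.4% of all called genes rose, against 51.1%. A replicate block gave 2971 genes, with 6 members that rose and 6 that fell. Whether same-numbered libraries are paired is not given. The correlation of their deviations was 0.0989, which cannot decide this with 2 libraries in each group.

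The median of the members was -0.020 with median ratio scaling, -0.118 with quantile normalization, 0.005 with the GC trend removed, -0.005 with chromosome medians removed and -0.109 to -0.069 with 1 library left out. The list of other transporters and isoenzymes had 0 changed genes with no filter, 1 with a constant prior, 6 with the replicate block and 0 to 9 with 1 library left out. For glycogen, pentose phosphate and gluconeogenesis the counts were 0, 2 and 0 to 13 (no filter, constant prior, 1 library left out), and for the regulators 1, 3 and 1 to 12.

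Members near 0 changed sign: PKM with quantile normalization (-0.14); LDHA with median ratio scaling (0.03), GC removal (0.09) and 1 library left out (-0.09 to 0.03); MPC1 with GC removal (0.03) and 1 library left out (-0.22 to 0.02); PDHA1 with chromosome medians removed (0.02); and PDK4 with median ratio scaling (0.01), GC removal (0.26), chromosome medians removed (0.04) and 1 library left out (-0.48 to 0.40). The fall of DEK did not pass with no filter (-1.89, adjusted p = 0.096), with a constant prior (-1.89, adjusted p = 0.056), or without control 1 (-1.73, adjusted p = 0.14) or control 2 (-2.05, adjusted p = 0.10); with 1 library left out its difference was -2.37 to -1.41. The causes were not tested. A group left with 1 library was assumed to vary like the other group. Depth limited ALDOC, which rests on about 22 to 61 reads per library.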
